A study of Mus musculus with 10 samples.

Results

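ETS transcription factors are named for a shared DNA-binding domain that reads a GGA core, and many promoters and enhancers of lymphocytes carry such a core next to a RUNX site. Ets1 is needed for natural killer cells (NKC) to develop, Elf4 acts on the perforin gene in NKC, and Gabpa works as a complex with Gabpb1, which itself has no ETS domain. Some family members activate transcription, whereas Etv6 and Etv3 are known mainly as repressors. The RNA of 10 genes was followed here: Ets1, Ets2, Fli1, Etv3, Etv6, Elf1, Elf2, Elf4, Gabpa and Gabpb1. They were picked by gene symbol from 18194 genes named on the array and had 26 probe sets between them. The choice was made with earlier results of these data known. The probe set with the highest mean over all arrays stands for its gene, and all others are reported beside it.

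The question asked of these data was how loss of Runx3, a RUNX factor abundant in NKC, changes their transcriptome under the cytokines that activate them. Total RNA was measured in spleen NKC of ICR mice aged 6 weeks, enriched by negative selection and cultured for 7 days. Recombinant human IL-2 was given at 1000 u/ml to 3 wild-type (WT, Runx3 +/+) and 3 Runx3 knockout (KO, Runx3-/-) cultures, and mouse IL-15 to another 2 of each genotype, with 1 array per culture. The labels give the sex as male or female for each sample, and in the study's methods the enriched cells were further sorted as DX5+. Runx3 is missing from the whole animal in these mice, so that a difference in cultured NKC can begin in other cells or earlier in life.

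All values are log2 GC-RMA signals as deposited. Medians of the arrays were 3.20 to 3.37. Of the 45101 probe sets, 34.6% to 36.7% reached log2 5 on an array, the level required in at least 2 arrays before a gene was tested. In the deposited table the sum of the WT and KO arrays with the same number was equal across the pairs of a cytokine, to within 0.00014. Differences between pairs had thus been removed, each KO effect rests on KO minus WT differences (3 pairs with IL-2, 2 with IL-15), and errors below are the SD over pairs. So few arrays limit precision throughout. A gene is called changed at a limma adjusted p under 0.05 with at least 1.5-fold, and rose and fell are used only of called genes.

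The labels could not be checked through Runx3 itself. Its bright probe set measured 11.31, 11.57 and 12.06 in WT and 11.41, 11.15 and 10.66 in KO in IL-2, so that the KO array of pair 1 was not below its WT partner. In IL-15 it measured 12.45 and 12.51 in WT against 11.41 and 11.35 in KO. Neither difference was called (adjusted p = 0.254 in IL-2 and 0.293 in IL-15), the other probe set of Runx3 stayed under log2 3 in all arrays, and where the probes lie relative to the deleted part is not given in the sources used here. Groups therefore stand as labelled, and the genes called in IL-2 are also given without pair 1.

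NKC markers were bright in all groups. The mean of 10 NKC marker genes lay between 11.20 and 11.88 over all arrays, while Itga2, which encodes the DX5 antigen, was under log2 5. In IL-2 the list mean was 11.20 to 11.40 in WT and 11.26 to 11.46 in KO. In IL-15 it was lower in KO without overlap, at 11.79 to 11.88 in WT and 11.33 to 11.42 in KO. Within this list Ncr1, the NKp46 receptor, rose in KO NKC in IL-2 by 2.11 ± 0.98 or 4.33-fold (adjusted p = 0.0170), Tbx21 also rose and Prf1 fell. According to the study's methods, nearly all cells carried NKp46 at the end of culture. Other lineages were also visible. In KO NKC in IL-2 the B cell genes Blk (at least 8.60-fold) and Ighm (4.79-fold), the antigen presentation genes H2-Aa (at least 4.28-fold) and Cd74 (at least 6.39-fold) and the T cell adaptor Lat (2.25-fold) rose. The monocyte gene Cd14 (at least 6.40-fold) and the basophil protease Mcpt8 (99.2-fold) fell. Without pair 1, Blk, Cd74 and Mcpt8 were the genes of these marker lists that stayed called. In IL-15, Mcpt8 (at least 23.9-fold) and the mast cell protease Cpa3 (at least 4.74-fold) fell, and both calls were lost when either IL-15 pair was left out. Over whole lists, 2 of 7 B cell genes with a probe set were bright enough to test, and the list mean moved from 3.33 to 3.46 in WT arrays to 4.44 to 4.57 in KO arrays in IL-2. The defining B cell genes Cd79a, Cd79b, Ms4a1 and Pax5 stayed under log2 5 in both genotypes. Of 8 T cell genes, 5 were bright enough to test, with a median KO minus WT difference of 0.90 in IL-2, and Lat alone was called. The array means of the 8 genes were 6.15 to 6.69 in WT and 6.46 to 7.00 in KO, with Cd4, Cd8a and Cd5 under log2 5. For 10 myeloid and dendritic genes they were 4.01 to 5.43 in WT and 4.80 to 6.22 in KO, and for 7 mast cell and basophil genes 5.67 to 6.13 in WT and 4.59 to 5.04 in KO. In IL-15 the WT and KO ranges were 3.52 to 3.57 and 3.79 to 3.84 for the B cell list, 6.34 to 6.79 and 6.23 to 6.69 for T cells, 3.77 to 4.70 and 4.57 to 5.51 for myeloid cells, and 5.88 to 6.00 and 4.21 to 4.33 for mast cells and basophils. The mean of 3 erythroid and platelet genes stayed under log2 4 in all arrays. Several of these cell types use ETS factors, and the part of other cells in the differences below was not tested, and in bulk RNA fewer cells of a type and less RNA per cell cannot be told apart.

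Promoter windows of 250 bases before the transcript start were read from RefSeq (GRCm38.p6) for 8 of the 10 genes, with no entry for Ets1 and Fli1. They were searched on both strands for 4 RUNX strings and 2 ETS strings. The RUNX strings were TGTGGT (held by 14% of all windows), TGTGGC (15.7% of all windows), TGCGGT (5.1% of all windows) and TGCGGC (9.47% of all windows). The ETS strings were CCGGAA (12% of all windows) and AGGAAG (29.5% of all windows), and no strings overlapped in the windows printed here. The windows of Etv6, Ets2, Elf2 and Gabpb1 are shown because the first 3 belong to genes that rose in KO NKC in IL-2 while the last belongs to a gene with lower values there. Capitals mark the strings found, and each sequence is written 5′ to 3′ on the strand of its gene.
Etv6, chr6:134035450-134035699, plus strand: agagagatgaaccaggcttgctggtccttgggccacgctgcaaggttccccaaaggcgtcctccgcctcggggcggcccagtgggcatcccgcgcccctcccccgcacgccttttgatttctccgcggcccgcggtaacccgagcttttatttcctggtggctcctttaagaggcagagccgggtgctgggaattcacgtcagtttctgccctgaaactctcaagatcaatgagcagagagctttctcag
Ets2, chr16:95702157-95702406, plus strand: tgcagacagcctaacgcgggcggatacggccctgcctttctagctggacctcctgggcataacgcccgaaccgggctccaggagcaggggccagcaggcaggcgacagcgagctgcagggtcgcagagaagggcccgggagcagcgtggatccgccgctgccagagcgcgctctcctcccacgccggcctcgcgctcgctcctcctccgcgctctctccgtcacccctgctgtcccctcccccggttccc
Elf2, chr3:51340645-51340894, minus strand: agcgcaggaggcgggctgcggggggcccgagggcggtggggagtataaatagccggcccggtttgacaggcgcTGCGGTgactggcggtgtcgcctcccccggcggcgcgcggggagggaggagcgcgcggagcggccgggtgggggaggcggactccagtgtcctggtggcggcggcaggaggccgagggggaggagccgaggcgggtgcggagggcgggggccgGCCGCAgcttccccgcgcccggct
Gabpb1, chr2:126675593-126675842, minus strand: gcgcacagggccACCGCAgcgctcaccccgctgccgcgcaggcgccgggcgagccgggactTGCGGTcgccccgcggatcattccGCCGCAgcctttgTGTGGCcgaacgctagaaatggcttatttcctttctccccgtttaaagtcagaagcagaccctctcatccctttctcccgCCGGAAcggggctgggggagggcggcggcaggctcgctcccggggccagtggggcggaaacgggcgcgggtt

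The windows of Etv6 and Ets2 held none of the strings. The Elf2 window shown held 2 RUNX strings and the Gabpb1 window shown 4 RUNX strings and 1 ETS string, CCGGAA. Among windows not shown, the second of Elf2 held 2 RUNX and 3 ETS strings. The window of Etv3, which also rose in KO NKC in IL-2, held 1 ETS string. The second Gabpb1 window held 2 RUNX strings and the Gabpa window 3 ETS strings. Counting alternative starts, 4 of 12 windows of these genes held a RUNX string and 5 of 12 an ETS string, beside 38% and 38.2% of all 32851 promoter windows in the table. A match describes letters only, and these windows leave out distal enhancers.

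In IL-2, 5 of the 9 ETS factor genes that could be tested rose in KO NKC and none fell. Etv6 and Ets2 moved by over 5-fold, and Ets1, Etv3 and Elf2 by over 2-fold. Elf1 and Fli1 had small differences, and both GABP subunits had lower values in KO without passing the threshold. At an unadjusted p under 0.05, 6 of the 9 passed in the limma fit, beside 36.3% of all genes. Over all 9391 tested genes, 19.7% were called in this comparison, 10.5% as higher in KO and 9.17% as lower. The median difference of the 9 genes was 1.23 on the log2 scale, against 0.11 over all genes tested. Because the genes were chosen with earlier results of these data known, these shares and medians describe them and do not test the family.

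**Figure D1:**
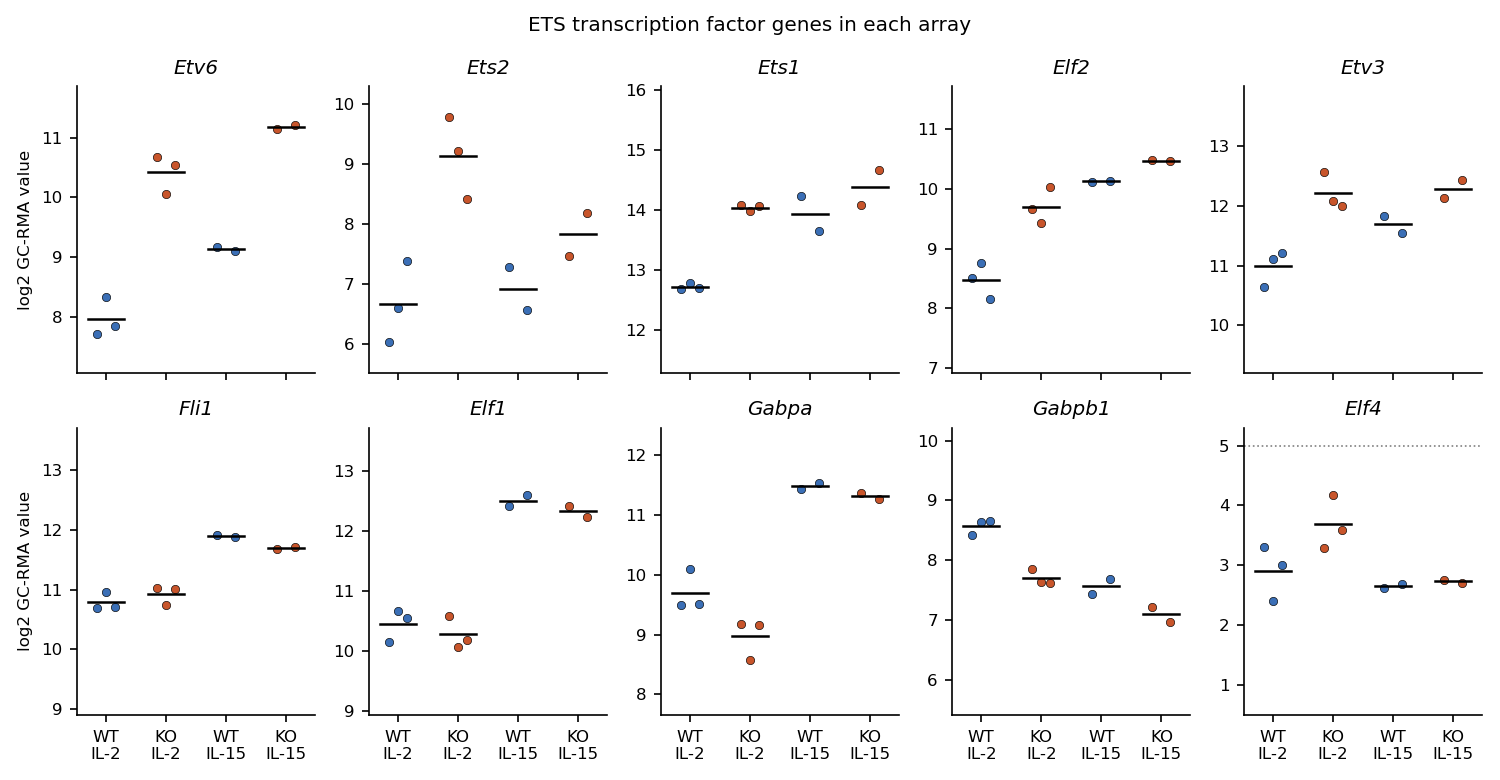
Level of each of the 10 genes (vertical axis, log2 GC-RMA value, each panel spanning the same number of log2 units) in each array of the 4 groups (horizontal axis), with WT in blue, KO in red and bars for group means. Etv6 separates KO from WT in both cytokines, whereas Elf1 and Gabpa separate mainly the cytokines, and Elf4 lies under the dotted line at log2 5 in all arrays.

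Etv6 encodes a repressor that is also known as a partner in leukaemia fusion genes. In IL-2 it measured 7.72, 8.33 and 7.86 in WT and 10.68, 10.06 and 10.54 in KO. All KO arrays lay above all WT arrays. The difference was 2.46 ± 0.65 (SD, 3 pairs), or 5.51-fold, with a limma adjusted p of 0.0050. In IL-15 it measured 9.17 and 9.11 in WT and 11.14 and 11.21 in KO, again without overlap. That difference, 2.03 ± 0.09 (SD, 2 pairs) or 4.09-fold, missed the threshold (adjusted p = 0.0629). A second, dim probe set of Etv6 also rose in IL-2, from a mean of 4.13 to 5.35, which is at least 1.28-fold because WT lay under log2 5. Its KO and WT arrays did not overlap in IL-15 either, where both means were under log2 5, with 2.86 in WT and 4.82 in KO.

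Etv3, another repressor, is linked to growth arrest in macrophages. It measured 10.63, 11.12 and 11.21 in WT and 12.56, 12.08 and 11.99 in KO in IL-2. KO arrays were all higher, by 1.23 ± 0.62 (SD, 3 pairs) or 2.34-fold, with a limma adjusted p of 0.0374. The other measurable probe sets gave higher values of the same sign, 2.08 ± 0.51 (adjusted p = 0.0097) and 2.63 ± 1.72 (adjusted p = 0.0307). The latter started from a WT mean under log2 5, so that its rise is at least 3.50-fold. In IL-15 the gene value was 0.59 ± 0.42 higher in KO (SD, 2 pairs), with arrays that did not overlap and an adjusted p of 0.594. The other measurable probe sets were higher there by 1.48 ± 0.55 (2.79-fold) and 1.46 ± 0.21 (2.75-fold), in the same order, also without overlap. Neither was called (limma adjusted p = 0.167 and 0.490). A further probe set of Etv3 stayed under log2 5 in all arrays.

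Ets1, the factor required for NKC development, was brightest at one of 4 probe sets. It measured 12.68, 12.78 and 12.69 in WT and 14.08, 13.98 and 14.07 in KO in IL-2. The 3 pairs were nearly equal, and the difference was 1.33 ± 0.11 (SD, 3 pairs) or 2.51-fold (adjusted p = 0.0240). A second bright probe set rose by 1.29 ± 0.21 (adjusted p = 0.0308). The 2 dimmer ones were 1.19 ± 0.90 and 0.88 ± 0.80 higher in KO and did not pass (adjusted p = 0.157 and 0.169). In IL-15 the arrays overlapped, with 14.23 and 13.65 in WT and 14.09 and 14.67 in KO. The KO minus WT difference was -0.14 in one pair and 1.02 in the other.

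Ets2 encodes a close relative of Ets1 that responds to the ERK pathway. It measured 6.03, 6.59 and 7.39 in WT and 9.78, 9.22 and 8.43 in KO in IL-2. The groups did not overlap, yet the pairs ranged from 1.04 to 3.75. Their mean was 2.47 ± 1.36 (SD, 3 pairs) or 5.55-fold (adjusted p = 0.0223). In IL-15, KO lay above WT by 0.91 ± 1.02 (SD, 2 pairs), with 7.28 and 6.56 in WT and 7.47 and 8.19 in KO and an adjusted p of 0.635. Its other probe sets, both of the type that Affymetrix marks as open to cross-hybridisation, stayed under log2 5.

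Elf2, whose isoforms include activators and repressors, measured 8.51, 8.76 and 8.15 in WT and 9.66, 9.42 and 10.02 in KO in IL-2. KO arrays were higher in all pairs, by 1.23 ± 0.61 (SD, 3 pairs) or 2.34-fold (adjusted p = 0.0316). The second measurable probe set did not show this: its pairs lay at 1.49, 0.34 and -0.47, with overlapping groups and an adjusted p of 0.510. In IL-15 the order of the probe sets turned, with 0.34 ± 0.03 for the bright one and 1.30 ± 0.94 for the second (SD, 2 pairs), neither called. A further probe set was dim.

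**Figure D2:**
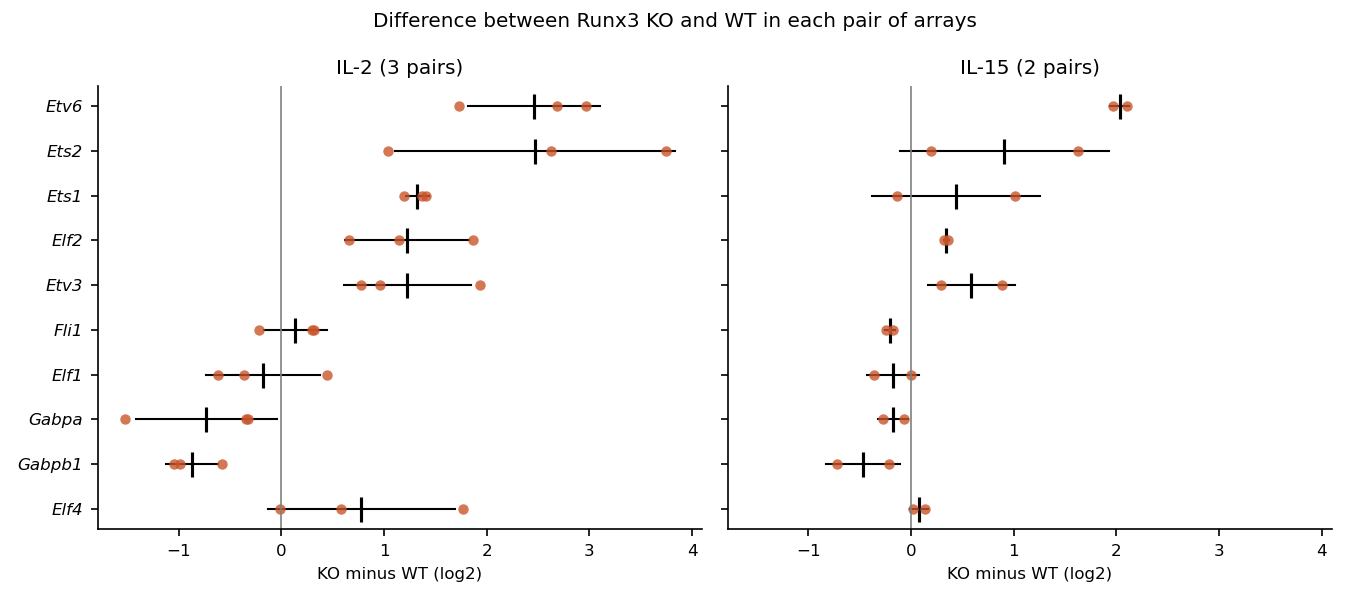
KO minus WT difference (horizontal axis, log2) of each gene (vertical axis) in each pair of arrays, with points for pairs, a vertical tick for the mean and a line for ± 1 SD, in IL-2 (left) and IL-15 (right). In IL-2 the pairs of Etv6, Ets2, Ets1, Elf2 and Etv3 all lie above 0, and in IL-15 the pairs of Etv6 lie at 1.97 and 2.10, while Elf4 is drawn although it was too dim to test.

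The genes that did not pass in IL-2 differed in kind. Elf1, an activator of lymphocyte genes such as Il2ra, measured 10.14, 10.67 and 10.55 in WT and 10.59, 10.06 and 10.18 in KO. The groups overlapped, with a difference of -0.18 ± 0.56 (SD, 3 pairs), a 95% interval from -0.87 to 0.52 and an adjusted p of 0.701. Fli1, a factor of blood and endothelial cells that neighbours Ets1 on chromosome 9 with no protein-coding gene between them, measured 10.70, 10.97 and 10.71 in WT and 11.02, 10.75 and 11.01 in KO. Here too the groups overlapped, and the difference was 0.14 ± 0.31 with a 95% interval from -0.45 to 0.72. The second Fli1 probe set differed by -0.76 ± 0.41, with KO lower and no overlap (adjusted p = 0.0974), so that the probe sets of Fli1 disagreed in sign. The second probe set of Elf1 had the opposite sign to the first, with pairs at 1.95, -0.96 and 1.15. In IL-15 the probe sets of Elf1 differed by -0.18 ± 0.26 and 0.50 ± 0.21 (SD, 2 pairs), again with opposite signs. Those of Fli1 differed there by -0.21 ± 0.05 and -0.40 ± 0.04, and none of these was called.

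Gabpa carries the ETS domain of GABP, the complex also called nuclear respiratory factor 2. Its brighter probe set measured 9.50, 10.10 and 9.51 in WT and 9.18, 8.58 and 9.16 in KO in IL-2. KO was lower in all pairs, with differences of -0.32, -1.52 and -0.35, and the mean difference of -0.73 ± 0.69 did not pass (adjusted p = 0.145). The second Gabpa probe set measured 9.28, 9.49 and 9.44 in WT and 7.90, 7.69 and 7.74 in KO. It fell by 1.62 ± 0.22 on the log2 scale, or 3.08-fold, with an adjusted p of 0.0099 in the fit over all probe sets. In IL-15 the probe sets differed by -0.17 ± 0.15 and -0.74 ± 0.09 (SD, 2 pairs), and neither was called.

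Gabpb1 encodes the subunit that brings the activation domain to the complex. It measured 8.43, 8.63 and 8.66 in WT and 7.85, 7.64 and 7.61 in KO in IL-2. KO arrays were all lower, and the difference of -0.87 ± 0.25 (SD, 3 pairs), 1.83-fold, lay just outside the threshold (adjusted p = 0.0541). The second probe set had overlapping groups and a difference of -0.09 ± 1.15. In IL-15 the brighter probe set was -0.47 ± 0.36 (adjusted p = 0.603). Elf4, known for its action on the perforin gene, ranged from 2.41 to 4.18 over all arrays at its brighter probe set and could not be assessed.

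Across all 20 probe sets of these genes that reached the level for testing, 9 rose and 1 fell in IL-2, beside 8.78% and 7.71% of the 17729 probe sets tested. Each of the 5 genes called had its brightest probe set among the 9, which nearly follows from that probe set being the gene value. Etv3 and Etv6 had all their measurable probe sets called, Ets1 2 of 4 and Elf2 1 of 2. For Etv6 this includes the dim probe set that reached log2 5 only in KO arrays in IL-2. Probe sets of a gene share its RNA and are not replicates. In IL-15, 0 of the 20 were called, beside 0.474% of all probe sets.

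**Figure D3:**
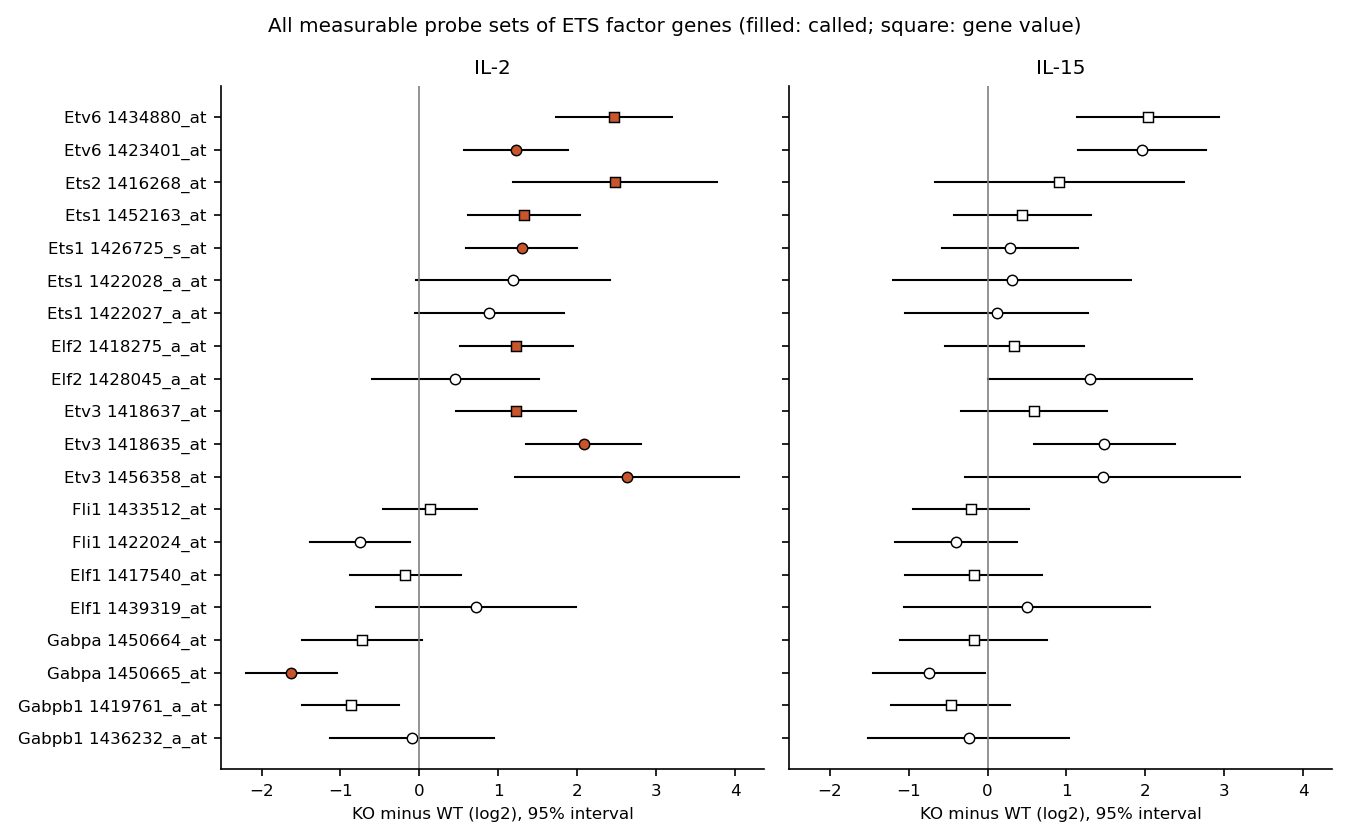
KO minus WT difference (horizontal axis, log2) with its 95% limma interval for each measurable probe set (vertical axis) in IL-2 (left) and IL-15 (right), with filled symbols for called probe sets and squares for the one that stands for its gene. The measurable probe sets of Ets1, Ets2, Etv3, Etv6 and Elf2 lie above 0 in both cytokines, while those of Fli1 and Elf1 fall on both sides in IL-2.

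By the count of arrays, KO and WT did not overlap in IL-2 for 5 of the 9 genes with KO higher, beside 31.1% of all genes tested, and for 2 with KO lower, beside 23.2%. In IL-15 the counts were 4 with KO higher, beside 31.7% of all genes, and 3 with KO lower, beside 32.9%. Because pair differences had been removed, arrays fail to overlap whenever all pairs share a sign, which is a weak condition with 2 pairs.

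The calls in IL-2 changed when pairs were left out, and so did those over all genes. Leaving out pair 1, in which Runx3 itself was not lower in KO, left Etv6 alone called, at 2.21 (adjusted p = 0.0397), while Ets1 kept a difference of 1.28 (0.115), Ets2 1.83 (0.116), Elf2 1.27 (0.121) and Etv3 0.87 (0.162). Leaving out pair 2 left Etv6 and Elf2 called, and leaving out pair 3 left Etv6, Ets2 and Etv3. Over all genes tested, 1851 calls became 537, 1026 and 1525 without pairs 1, 2 and 3. Etv3 and Elf2 also lost their calls when an IL-15 pair was left out, although their IL-2 differences stayed at 1.23. A lost call therefore need not mean that a rise depended on the pair left out. Etv6 was called in IL-2 in all alternatives run, with adjusted p from 5.6e-05 to 0.0397.

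In IL-15, 0 of the 9 genes were called by limma, beside 1.3% of all genes. At an unadjusted p under 0.05, Etv6 alone of these genes passed by its gene value, beside 13.5% of all genes. The median difference was 0.34, against -0.01 over all genes tested. With 2 pairs the intervals are wide: that of Ets1 ran from -0.41 to 1.29 and that of Ets2 from -0.64 to 2.46 on the log2 scale. Etv6 passed the threshold in IL-15 under some other settings, with adjusted p between 0.00177 and 0.440 over all of them.

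Whether the KO effect differed between cytokines was tested as an interaction. None of the 9 genes was called, and neither was any other gene (0%). At an unadjusted p under 0.05, 0 of the 9 and 11.8% of all genes passed. The KO effect in IL-15 minus that in IL-2 was -1.56 for Ets2, with a 95% interval from -3.57 to 0.44, -0.89 for both Ets1 and Elf2, and -0.43 for Etv6, with an interval from -1.57 to 0.72. A gene called in IL-2 and not in IL-15 is thus not shown to respond differently.

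The levels in IL-15 and IL-2 were set side by side without a test, since the removal of pair differences left no error for it. In WT, 7 of the 9 genes were at least 1.5-fold higher in IL-15 with no overlap of arrays, beside 32.7% of all genes, and 1 was lower, beside 20.6%. In KO, 5 were higher, beside 26.2%, and 2 lower, beside 25.2%. Elf1 was 4.16-fold higher in IL-15 in WT and also 4.16-fold in KO. Gabpa was 3.45-fold higher in WT and 5.07-fold in KO, though its second probe set differed by -0.23 in WT and 0.65 in KO on the log2 scale. Elf2 was 3.14-fold higher in WT and 1.70-fold in KO. Gabpb1 was the gene with lower values in both, 2.01-fold in WT and 1.52-fold in KO, but its second probe set was higher in IL-15 in WT by 0.47.

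**Figure D4:**
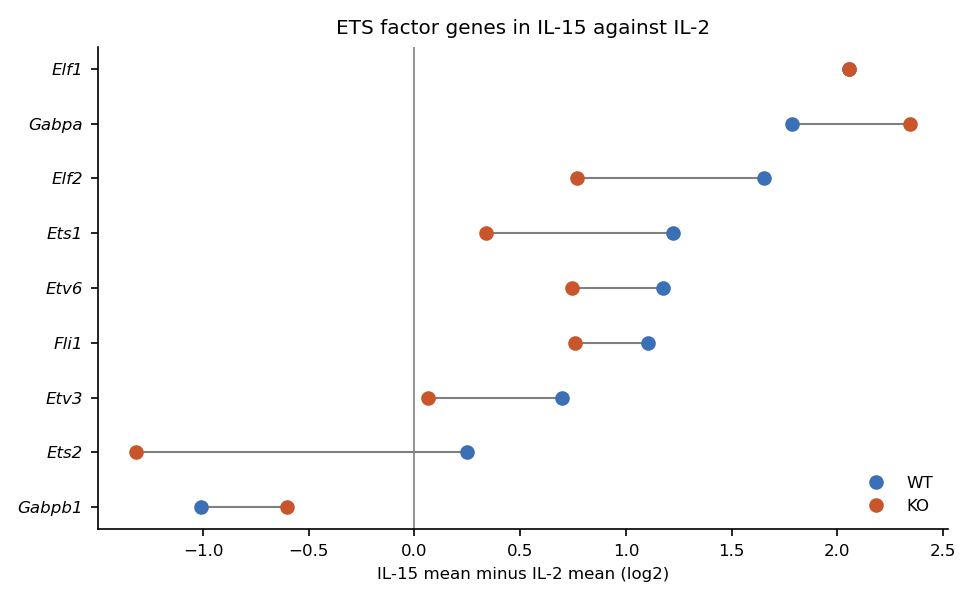
IL-15 mean minus IL-2 mean (horizontal axis, log2) of the 9 measurable genes (vertical axis), with WT in blue, KO in red and a line joining both genotypes. Elf1 has the same difference of 2.06 in both genotypes, and Ets2 lies at 0.25 in WT and -1.31 in KO.

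By the gene values of Ets1, Ets2, Etv3, Etv6, Elf2 and Fli1, WT in IL-2 had the lowest mean of the 4 groups. Its arrays overlapped with WT in IL-15 for Ets2 and with KO in IL-2 for Fli1. At the second Fli1 probe set, KO in IL-2 had the lowest mean, 9.41, against 10.16 in WT in IL-2. Mean Ets1 levels were 12.72 in WT in IL-2, 13.94 in WT in IL-15, 14.04 in KO in IL-2 and 14.38 in KO in IL-15. The last 3 of these lay within 0.44 of each other, and the arrays of WT and KO in IL-15 overlapped. Mean Etv6 levels were 7.97, 9.14, 10.43 and 11.18 in the same order of groups, with no overlap between neighbours. The second Etv6 probe set, dim in IL-15, was lower in IL-15 than in IL-2 in both genotypes. Arrays of the cytokines also differed in sex-linked RNA: Xist had means of 5.10 and 4.91 in IL-2 and of 14.38 and 14.56 in IL-15, and the Y-linked Eif2s3y had means of 8.60 and 7.88 in IL-2 and of 2.42 and 2.36 in IL-15. Cytokine and the sex of the mice therefore cannot be told apart in these levels. The same holds for the interaction, which compares KO effects between the cytokines, whereas each KO minus WT difference stays within a cytokine.

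Most of the rest of the family was dim on the array or had no named probe set. Of 18 other ETS-domain genes of the mouse, 15 had a named probe set and 5 were bright enough to test. Of these 5, 0 were called in IL-2, beside 19.7% of all genes tested, and 0 in IL-15, beside 1.3%. These were Elk1, Elk3 and Elk4, which bind with serum response factor, the repressor Erf, and Etv5. Nearest to the threshold in IL-2 was Elk4, at 0.90 ± 0.79 (adjusted p = 0.104). In IL-15 it was Etv5, at 1.41 ± 0.21 (adjusted p = 0.289). Spi1, Spib and Spic, the ETS factors of myeloid and B cells, were under log2 5 in all groups on average.

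Among 11 measurable partners and regulators of ETS factors, 1 rose in KO NKC in IL-2 and 0 fell, beside 10.5% and 9.17% of all genes tested. The gene was Hcfc1, a coactivator of GABP, at 1.01 ± 0.44 or 2.02-fold (adjusted p = 0.0405). Without pair 1 it stood at 0.76 and was not called (adjusted p = 0.172). The ERK pathway kinase Map2k1 differed by -0.92 ± 0.36 and just missed the threshold (adjusted p = 0.0519), and so did Ddx20, a corepressor partner of Etv3, at -0.74 ± 0.28 (adjusted p = 0.0757). Map2k2 differed by -0.09 ± 0.25, and the coactivators Crebbp and Ep300 by 0.38 ± 0.57 and 0.43 ± 0.70. None was called in IL-15, beside 1.3% of all genes tested.

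Of 15 lymphocyte genes that are known from other work to be under ETS control, 6 were called in IL-2, 4 higher and 2 lower in KO, beside 10.5% and 9.17% of all genes tested. Klf2, a quiescence factor, rose by 4.02 ± 0.43, which is at least 6.25-fold because WT lay under log2 5. Il7r, the IL-7 receptor chain for which GABP is a known activator, rose by 2.38 ± 1.02, or at least 1.32-fold for the same reason. Tbx21, which encodes T-bet and depends on Ets1 in NKC, rose by 1.42 ± 0.67 or 2.67-fold, and Cd247, the signalling zeta chain, by 1.40 ± 0.26 or 2.63-fold. Il2ra, the IL-2 receptor alpha chain, fell by 1.95 ± 0.34 or 3.86-fold, and Prf1, perforin, by 1.73 ± 0.94 or 3.32-fold. Their adjusted p ranged from 0.0077 to 0.0260. The GABP targets of mitochondrial transcription and respiration differed little or did not pass: Tfb2m was -0.92 ± 0.50 (adjusted p = 0.0668), Tfam 0.71 ± 0.55 (adjusted p = 0.123), and Cox4i1 and Cox5b 0.00 ± 0.09 and 0.02 ± 0.03. The median of the list was 0.23, against 0.11 over all genes tested, and in IL-15 none was called, beside 1.3% of all genes. Without pair 1, 0 of the 6 stayed called, while calls over all genes tested went from 1851 to 537. The 6 differences then ran from -1.80 for Il2ra to 3.98 for Klf2, with the same signs and limma adjusted p from 0.0617 to 0.123.

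**Figure D5:**
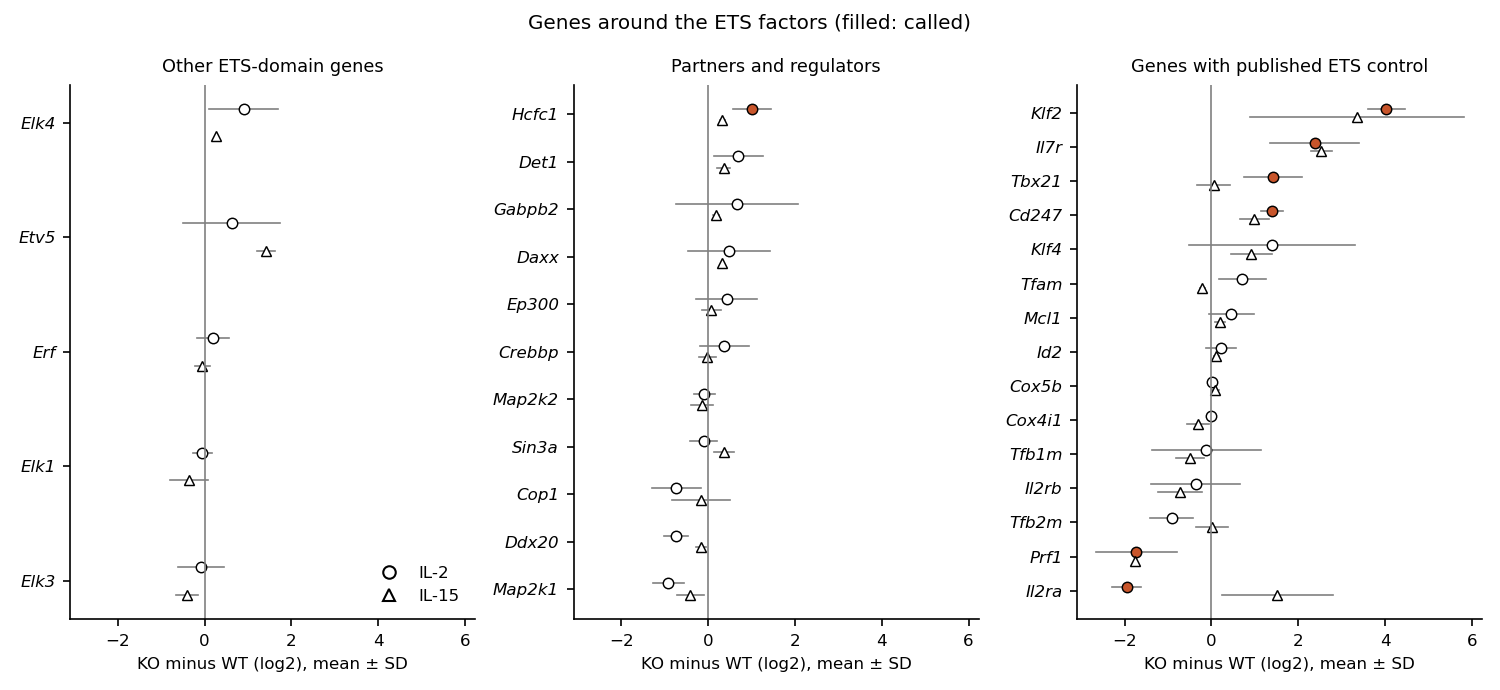
KO minus WT difference (horizontal axis, log2, mean ± SD over pairs) in IL-2 (circles) and IL-15 (triangles) of other ETS-domain genes, of partners and regulators, and of lymphocyte genes with published ETS control, with filled symbols for called genes. The called genes, all in IL-2, are Hcfc1, Klf2, Il7r, Tbx21, Cd247, Prf1 and Il2ra.

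The RUNX factors, which bind beside ETS sites, moved in part with these genes. Runx1 rose in KO NKC in IL-2 by 2.64 ± 1.13 or 6.24-fold (adjusted p = 0.0115), and without pair 1 it stood at 2.09 (adjusted p = 0.0687). Its difference in IL-15 was 0.62 ± 0.84. Cbfb, the partner subunit of all RUNX factors, was 0.53 ± 0.44 and 0.55 ± 0.15 higher in KO without passing.

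The genes whose pattern over the 10 arrays was most like that of 4 ETS factors were listed by Pearson's r, as a description. The points share libraries and normalization, and pair differences had been removed from them. For Etv6 they were Gypc (0.995), Ttc28 (0.992) and Wwox (0.992), and for Ets1 Camta1 (0.985), 1700094D03Rik (0.982) and Xdh (0.980). For Ets2 they were Bap1, Llgl1 and Zfp574, all at 0.996, and for Gabpa Ubr1 (0.999), Rdx (0.999) and N4bp2 (0.998).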

How the data were processed

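RNA of 10 cultures of splenic NKC was measured on Affymetrix mouse expression arrays. The authors imported the scans into the Partek Genomics Suite and deposited log2 values per probe set made with GC-RMA (versions not given in the sources used here); these were used without further scaling. Neither source describes the step that removed differences between numbered WT and KO pairs. It was found from the pair sums, which were equal to within 0.00014 in IL-2 and 0.00013 in IL-15, so the number of the labels was used as a pair block. The methods speak of biological repeats without tying arrays to separate mice, so p-values measure only the spread between these samples, which may be technical in part.

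Probe sets were named from the platform table (34958 with 1 symbol, 932 with several, 9211 unlisted). A gene was represented by its probe set of highest mean. It was tested where this reached log2 5 in at least 2 arrays (9391 of 18194 genes). All arrays were fitted in limma 3.58.1 (R 4.3.3) with cytokine-specific KO effects, the pair as a block (3 residual degrees of freedom) and moderated variance. Calls needed a Benjamini-Hochberg adjusted p under 0.05 over all genes and at least 1.5-fold; a second fit covered 17729 probe sets. A fold whose lower group averaged below log2 5 is a lower limit, computed against log2 5. Calls used the values as deposited, so that such a limit can lie under 1.5-fold.

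Alternatives were no block, other filters on dim genes, centring, quantile normalization, the mean of a gene's probe sets, the study's thresholds (unadjusted p under 0.05) and leaving out each pair; their use on called genes of the lists was added after the data were seen. Genes named are all 10 ETS factors, Runx3, called genes of the lists or those nearest the threshold, and the 3 most alike in pattern. Values of some other list members were chosen after they were seen. The ETS factors and lists were chosen with earlier results of these data known, and list membership comes from general knowledge. Promoters come from RefSeq, GRCm38.p6.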

Additional observations from a re-analysis of the deposited data

How the results depend on the processing

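In IL-2, the count of ETS factor genes called (5) dropped to 1 with no filter on dim genes and to between 1 and 3 when a pair was left out. In IL-15 (0) it was 1, Etv6, with no replicate block (adjusted p = 0.00177), with quantile normalization (0.0475), with the mean of all probe sets (0.0340) and with unadjusted thresholds. For the interaction, 0 of these genes were called under any setting. Averaging probe sets ended the calls of Ets1 (1.17, adjusted p = 0.0505) and Elf2 (0.84, 0.0765) and called Gabpa (-1.17, 0.0234), over ranges of 0.000775 to 0.115, 0.00129 to 0.121 and 0.0234 to 0.474. It also turned Elf1 to 0.27 in IL-2 and 0.16 in IL-15 and Fli1 to -0.31 in IL-2. Without the block, Gabpa (0.0236) and Gabpb1 (0.00130) were called too, and Gabpb1 also with quantile normalization (0.0382) and unadjusted thresholds. With a pair left out, Elf1 ranged from -0.49 to 0.0406 in IL-2 and from -0.36 to 0.0043 in IL-15, turning without pair 2 of that cytokine, and Ets1 in IL-15 from -0.14 without pair 2 to 1.02. Over all genes, calls in IL-2 (1851) were 3803 without the block, 842 without the filter, 3391 with unadjusted thresholds, and 537 and 1026 without pairs 1 and 2. In IL-15 (122) they were 1321, 0 and 1269 in the same order, 12 without IL-2 pair 1, and 0 and 11 without IL-15 pairs 1 and 2. For the interaction (0) they were 1157 without the block, 4 with a stricter filter, 1106 with unadjusted thresholds and 1 without IL-15 pair 2. Fewer residual degrees of freedom come with each left-out pair; other causes were not tested. Of 108 alternative values of single ETS factors per cytokine, 81 (IL-2) and 101 (IL-15) kept direction and side of the threshold. Signals under log2 5 limit Elf4.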
